A study of Mus musculus with 6 samples.

Results

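The livers described here came from the Mdr2-/+ mice of a study of chronic liver inflammation, and the question was which CpG islands (CGIs) carried DNA methylation in control liver at the age of 12 months. These 3 arrays were chosen by the genotype given in their labels, out of 6 arrays in all, with 1 array for each mouse. The mice were FVB males that carried 1 disrupted allele of Mdr2 (Abcb4), the gene of a canalicular transporter needed for phosphatidylcholine in bile, and they came from crosses of the Mdr2-KO strain with FVB/NJ. They are heterozygotes and not wild type animals, and no wild type liver was analysed here. On each array, DNA precipitated with an antibody against 5-methylcytosine carried Cy5, and total DNA of that liver, called input, carried Cy3. The dyes were never swapped, so a dye bias and enrichment cannot be told apart. Whole liver was used, which holds hepatocytes together with bile duct, endothelial, stellate and immune cells. In such bulk DNA, methylation of all copies in a few cells and of some copies in many cells cannot be told apart. Markers of cell types could not be checked, because the arrays measured DNA and the files give no gene names.

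CpG islands are short stretches of the genome that are rich in CpG dinucleotides and often overlap the promoters of genes. Most of them stay free of methylation in normal tissues, whereas CpGs outside of islands are mostly methylated. Known exceptions are islands of imprinted genes, in which the copy from 1 parent is methylated, islands of germline genes, and islands on the inactive X chromosome of females. In methylated DNA immunoprecipitation (MeDIP) the antibody pulls down fragments by their number of methylated cytosines. Consequently, the ratio of precipitated over input DNA rises with methylation and with the density of CpGs, and it gives an order of islands and not a percentage of methylated molecules.

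The level of a CGI was the mean log2 ratio of MeDIP over input signal over its probes, after the median of all probes of the array had been set to 0. Islands are not named in the files, and probes were therefore joined into a CGI where neighbouring starts were within 500 bp of each other and 3 or more probes could be joined. In this way 13826 CGIs were defined by 85537 probes. A CGI held a median of 5 probes, the most was 40, and the median width was 644 bp. Input signal was well above background, as called by the scanner software, at 89.2% to 91.6% of the probes of an array, and MeDIP signal at 78.1% to 83.4%. All positions refer to the mm8 build, for which the array was designed. The number of arrays limits the precision of every value below.

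Most CGIs lay close to the array median, and a minority formed a separate group with strong MeDIP enrichment. At 2050 of the 13826 CGIs tested (14.8%) the log2 ratio was 1 or more, with an adjusted p under 0.05 from limma, and these are called enriched. Another 734 CGIs (5.31%) had a log2 ratio of -1 or less with an adjusted p under 0.05 from limma, and these are called depleted. Every CGI with a mean past either limit also passed the test over the 3 mice. By the adjusted p alone, 3908 CGIs (28.3%) were above the array median and 5299 CGIs (38.3%) below it. With normexp background correction the counts were 484 enriched and 25 depleted. There 1297 and 32 CGIs were past the limits of size, and the lowest adjusted p of any CGI was 0.0485 from limma.

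In each mouse the distribution of the CGIs had a main peak just below 0 and a small upper peak far above it. The main peak was at -0.27 in mouse 1, -0.25 in mouse 2 and -0.25 in mouse 3. The upper peak was at 5.18 in mouse 1, 4.40 in mouse 2 and 4.33 in mouse 3, and the trough between the peaks at 3.10, 2.53 and 2.59 in the same order. Each array had been centred on the median of its probes, so the shared place of the main peak is largely built in. The distance between the peaks was 5.45 in mouse 1, 4.65 in mouse 2 and 4.57 in mouse 3. Thus the upper peak of mouse 1 was shifted upwards relative to its main peak. For the mean of the mice, the peaks were at -0.27 and 4.68 and the trough at 2.72. The middle 50% of the CGIs lay between -0.51 and 0.40, the median was -0.11, and the whole range was -2.32 to 6.06.

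**Figure D1:**
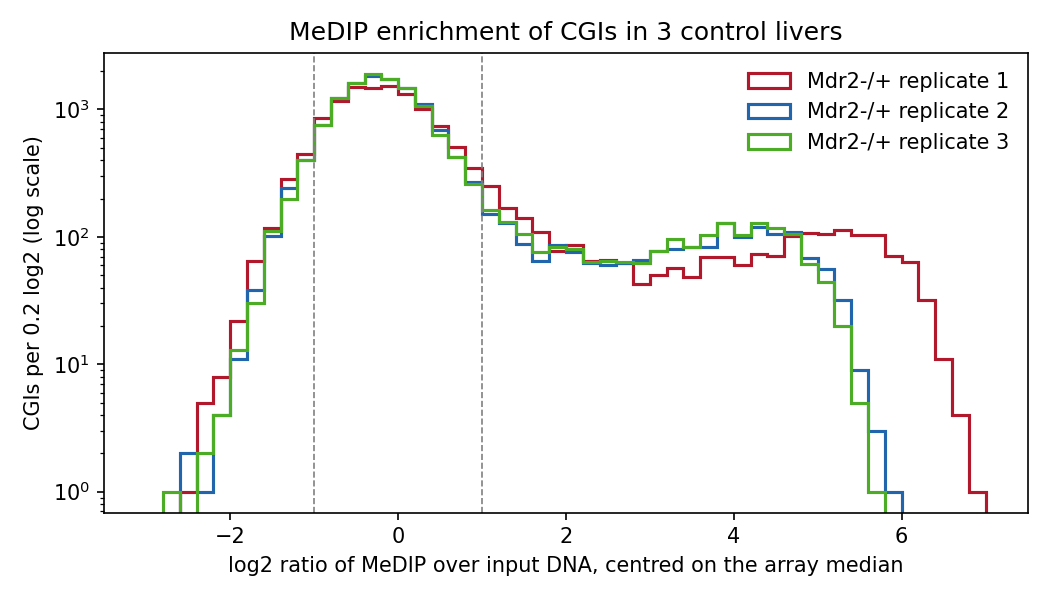
Number of CGIs (log scale) per 0.2 of centred log2 ratio of MeDIP over input DNA, as a line for each of the 3 Mdr2-/+ livers, with dashed lines at -1 and 1. All 3 lines have a main peak just below 0 and a smaller upper peak, which lies at 5.18 in mouse 1 and at 4.40 and 4.33 in mice 2 and 3.

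Of all CGIs, 1240 (8.97%) were above the trough of the mean distribution and 810 had values between 1 and the trough. The islands above the trough were largely shared by the mice. Above its own trough were 1288 CGIs in mouse 1, 1200 in mouse 2 and 1201 in mouse 3, and 1174 CGIs were above it in all 3 mice. These were 91.1% of the CGIs above the trough in mouse 1, 97.8% in mouse 2 and 97.8% in mouse 3. A mixture of 2 normal distributions, fitted to each mouse as a description, put 15.1%, 12.98% and 13.8% of the CGIs of mice 1, 2 and 3 into the upper component. Its wide SD of 1.73, 1.33 and 1.35 in the same order covered the intermediate values as well as the upper peak.

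Enriched CGIs stood apart from the others in the precipitated DNA, while the input signal had nearly the same median in all groups. The median log2 ratio of the 2050 enriched CGIs was 3.997 in mouse 1, 3.08 in mouse 2 and 3.11 in mouse 3. Their MeDIP signal, as log2 relative to the median probe of the array, had a median of 3.00, against -0.32 at the 11042 CGIs between the limits and -1.32 at the depleted CGIs. The input signal on the same scale was -0.23, -0.24 and -0.23, respectively. As the ratio is made from these signals, this is a description of where the calls came from. At the depleted CGIs only 61.1% of MeDIP probes were well above background, compared to 96.9% at enriched and 78.7% at the other CGIs, and 13 depleted CGIs had no MeDIP probe above background. For those, the ratio is only a bound.

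Most enriched CGIs had a mean log2 ratio of 1 or more at every probe. This was so in 1541 (75.2%), and 113 (5.51%) held a probe at 0 or below. Among the 35 enriched CGIs with at least 15 probes the share was 40%. As the class was set by the mean of these same probes, these shares are partly built in. The probes within an enriched CGI had a median SD of 0.55, lower than the 0.87 at the CGIs between the limits and the 0.87 at depleted CGIs. In those groups the MeDIP signal was also less often well above background. Enriched CGIs were also shorter, with a median of 4 probes and 457 bp, against 6 probes and 686 bp at the CGIs between the limits and 5 probes and 595 bp at the depleted ones.

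The share of enriched CGIs decreased with the number of probes. It was 24.3% for CGIs of 3 probes, 21.9% for 4 probes and 12.4% for 5 or 6 probes. Above that it hardly changed, with 8.21% for 7 to 9 probes, 8.82% for 10 to 14 and 9.19% for 15 to 40. In each mouse the order was the same for the shortest islands: a log2 ratio of 1 or more was found at 27.6%, 23.1% and 23.4% of the 3-probe CGIs of mice 1, 2 and 3, compared to 9.65%, 7.34% and 7.87% of the CGIs with 7 to 9 probes. The share of depleted CGIs fell as well, from 6.74% at 3 probes to 0.787% at 15 or more, where a mean over more probes also varied less between mice (median SD 0.12 against 0.24).

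Among CGIs with at least 50% of their probes well above background in both channels on each array, the 10 highest had mean log2 ratios from 5.78 to 6.06. All 10 were called enriched, also with loess within arrays, where their means were 1.34 to 3.98 and in another order, and with normexp background correction, where they were 3.61 to 4.42 (adjusted p = 0.0485 from limma). The highest was chr11:77287634-77287929, with 3 probes and log2 ratios of 6.81, 5.83 and 5.55 in mice 1, 2 and 3. Its mean was 6.06 ± 0.66 (SD, n = 3, adjusted p = 0.000204 from limma), and its lowest probe was still at 5.56. Next was chr6:47834271-47835039, with 6 probes and log2 ratios of 6.72, 5.65 and 5.60. In both CGIs mouse 1 was the highest by about 1 log2 unit, while mice 2 and 3 lay close together, and this order of mouse 1 above the others held for all 10.

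The other members of the top 10 were chr13:56897357-56897586, chr5:110618237-110618805, chr8:4206417-4206764, chr8:107031724-107032055, chr17:23303733-23304460, chr5:140223793-140224866, chr10:79138361-79139344 and chr5:140776540-140777149. The CGI at chr17:23303733-23304460 had 8 probes, which lay between 5.14 and 6.68, and mouse values of 6.50, 5.53 and 5.39. Strong enrichment was therefore present in CGIs of 3 as well as of 8 probes. The SD over the mice was 0.56 to 0.70 in this group, and it was 0.010 to 0.10 after the arrays were scaled to the same SD.

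At the other end, the 10 lowest CGIs under the same condition on signal had means from -2.04 to -1.64. Their MeDIP signal was well above background in 50% to 86.7% of the probe readings, so part of each ratio came from probes that give only a bound. When only probes above background in both channels were used, 5 of the 10 had fewer than 3 probes left and no value, and the other 5 had means from -2.16 to -1.31. The lowest was chr15:35099806-35100464, with 4 probes and log2 ratios of -2.12, -2.13 and -1.87 in mice 1, 2 and 3 (mean -2.04, adjusted p = 0.000204 from limma). The next was chr1:66633976-66634557, with -1.87, -2.005 and -2.13. Mouse 1 had no constant place among the low CGIs, in contrast to the high ones. The depleted group was not set apart by a peak of its own, and its CGIs formed the lower tail of the main peak. With normexp background correction, 9 of these 10 calls were lost, as the values moved toward 0 (-0.85 for the CGI on chromosome 15).

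Some long islands were enriched throughout. Of the 381 CGIs with at least 15 probes, 35 (9.19%) were enriched, compared to 14.8% of all CGIs. In 14 of the 35 (40%) every probe had a mean log2 ratio of 1 or more, compared to 75.2% of all enriched CGIs. The longest of these was chr15:76005782-76009269, where 26 probes over 3488 bp had mean ratios between 2.98 and 5.99. Its values were 5.63 in mouse 1, 4.53 in mouse 2 and 4.40 in mouse 3, so that the lowest mouse was far above the trough. A CGI of 21 probes at chr2:173941465-173943988 had 5.02, 4.11 and 3.96, and a CGI of 20 probes at chr5:143518119-143520506 had 5.88, 4.47 and 4.44. The mean of each of these islands was above the trough in each mouse. The 3 CGIs were taken by their number of probes after their values were known. Their means were 2.07 to 2.90 with loess and 2.44 to 3.22 with normexp, where 2 of the 3 were called enriched.

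A different pattern was found in islands that held both high and low probes. In 104 of the 13826 CGIs at least 2 probes had a log2 ratio of 2 or more and at least 2 had 0 or less. By their mean, 39 of the 104 were called enriched and 65 lay between the limits. When probes with a mean of 1 or more were counted as high, 14 of these CGIs changed 2 times along the island and 52 more often. The other 38 changed only once, from high to low in the direction of rising coordinates in 22 of them. The longest of the 38 was chr5:111656748-111660873 with 33 probes. Its first 12 probes had means of -0.53, -0.69 and -0.60 in mice 1, 2 and 3, and its last 21 probes had 4.42, 3.45 and 3.51. As the probes were split at 1 by their mean over these same mice, a gap between the low and the high part is built in.

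The opposite order was seen at chr1:64669020-64672357. Here the first 17 probes had means of 5.04, 4.02 and 4.02 and the last 8 probes -0.62, -0.61 and -0.70. At chr18:35778345-35781350, 17 high probes with 4.66, 3.66 and 3.71 were followed by 7 low probes with 0.39, -0.07 and -0.02. At chr8:28442587-28445739, 9 low probes with -0.06, -0.39 and -0.20 were followed by 14 high probes with 4.196, 3.07 and 3.14. In each of these islands the high part lay at the same end in all 3 mice. A mean over such an island falls between the groups, as in the last example with 2.53, 1.72 and 1.83. The examples are the 4 CGIs with most probes among the 38, and as their probes were split by their own values, no test was made. By their mean, all 4 were called enriched, against 3 with loess and 1 with normexp.

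**Figure D2:**
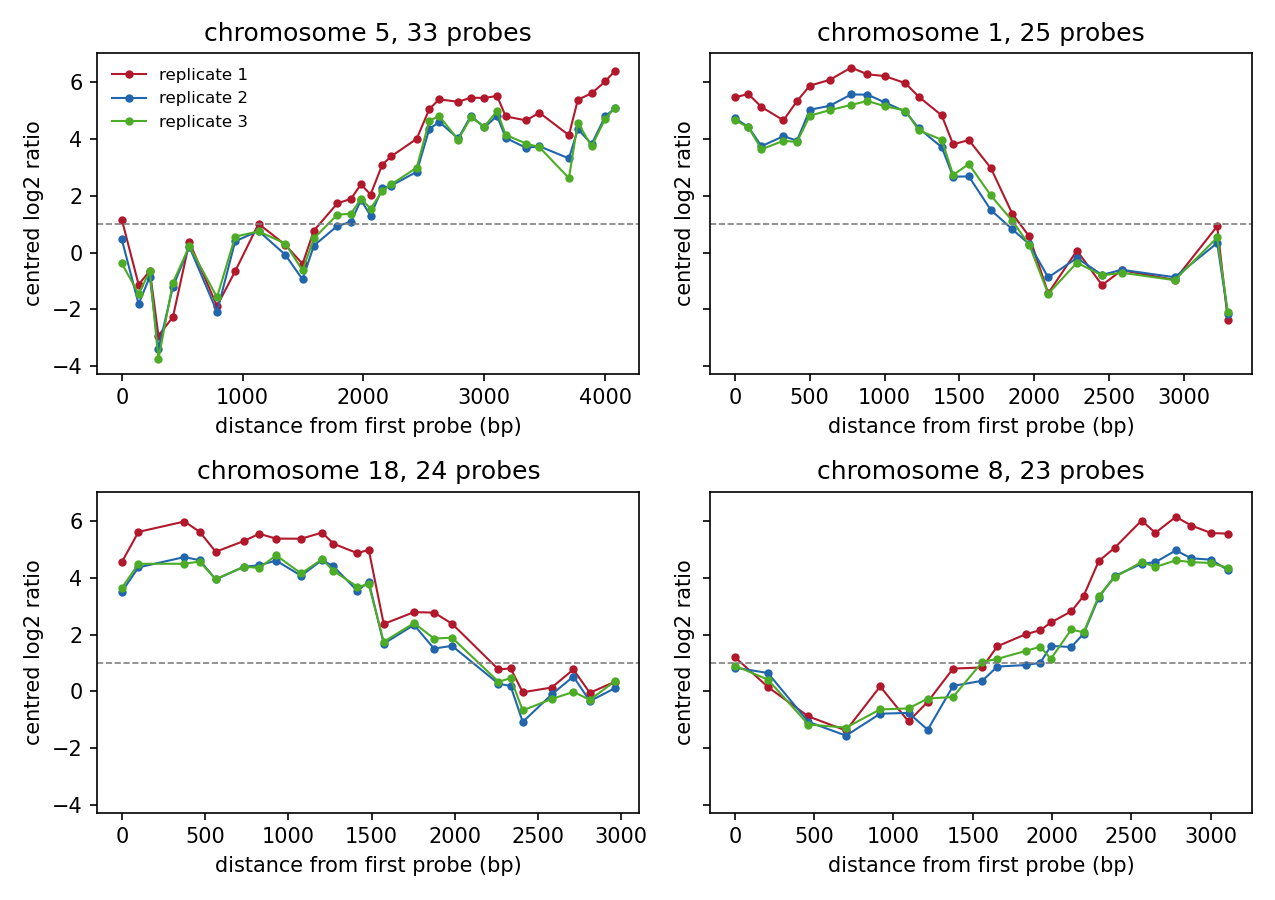
Centred log2 ratio of each probe against its distance in bp from the first probe, with a dashed line at 1. Shown are the 4 CGIs with most probes among those with 1 change of level, with a line for each Mdr2-/+ liver. The 3 lines move in the same direction over the same part of each island, and in the high part mouse 1 lies above mice 2 and 3.

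Within enriched CGIs the outermost probe at each end was lower, on average, than the inner ones. For the 284 enriched CGIs with at least 8 probes, the mean outer minus inner difference was -0.40 in mouse 1, -0.33 in mouse 2 and -0.32 in mouse 3. In CGIs between the limits it had the opposite sign, with 0.19, 0.07 and 0.08 over 2898 CGIs, and in the 126 depleted CGIs of this size it was 0.26, 0.08 and 0.14. The outer probes were higher in 31.3% of the enriched, 56.1% of the between and 57.1% of the depleted CGIs. CGIs were classed by the mean of these same probes, most of them inner ones. The change of sign between the classes is therefore partly built in, in every mouse. These directions were the same in all 3 mice, but 3 mice cannot give an exact permutation p below 0.25 (two-sided), which was the p of each difference. The order of the probes from the lower to the higher coordinate was also cut into 5 equal parts, and the probes of all these CGIs were pooled. In enriched CGIs the means of the parts were 3.08, 3.26, 3.19, 3.00 and 2.84. The differences along the island were thus small compared to the distance between the peaks.

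Enriched CGIs often lay next to each other. Of the CGIs with their nearest neighbour less than 2 kb away, 55.9% were enriched where the neighbour was enriched and 8.30% where it was not. At a distance of 2 to 10 kb the shares were 34.1% and 21.2%, and at 10 to 50 kb 16.5% and 14.3%. The shares were 11.6% and 9.46% at 50 to 250 kb, and 7.69% and 7.28% at more than 250 kb. The share of enriched CGIs itself was highest, with 24.3%, where the nearest CGI was 2 to 10 kb away, and lowest, with 7.31%, where it was more than 250 kb away. Pairs of neighbours share their libraries, and neighbours under 2 kb apart can be pieces of 1 island that were split by a gap between probes, so these shares are a description without a test.

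When consecutive enriched CGIs no more than 100 kb apart were joined, 1371 stood alone, 209 runs held 2 CGIs and 49 held 3. The longest run had 8 CGIs with 36 probes and lay at chr8:46449325-46550419. The mean over its CGIs was 5.42 in mouse 1, 4.66 in mouse 2 and 4.43 in mouse 3, and its CGIs ranged from 3.72 to 5.59. Input signal was low in this run, with log2 values from -2.90 to -0.11 relative to the median probe, and the part of low input in its ratios was not tested.

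The next runs had 7 CGIs each. At chr18:37058076-37216473 the means were 4.23, 3.19 and 3.32, and at chr8:87591633-87675185 they were 3.39, 2.47 and 2.58. A run of 6 CGIs at chr15:75917494-76011116 contained the 26-probe island described above and had means of 5.51, 4.45 and 4.37. Another run of 6 CGIs was at chr8:74608594-74638801, with 3.52, 2.77 and 2.73. Thus 3 of the 5 longest runs were on chromosome 8, and in each run mouse 1 had the highest mean. Runs were chosen by their number of CGIs, called length here, after the values were known. With loess 32 of the 34 CGIs in these 5 runs were still enriched, and with normexp 7, although 29 had a mean of 1 or more.

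Chromosomes differed in their share of enriched CGIs. Chromosome 8 had the highest share, with 161 of 796 CGIs or 20.2% (95% exact binomial interval 17.5% to 23.2%). It was followed by chromosome 15 with 20.03%, chromosome 7 with 19.7% and chromosome 17 with 19.6%. The lowest was chromosome 13 with 45 of 516 CGIs or 8.72% (95% exact binomial interval 6.43% to 11.5%). Next to it was chromosome 3 with 9.15%. Ranked by the share of CGIs at a log2 ratio of 1 or more, chromosome 8 was the first and chromosome 15 the second in every mouse, and chromosome 13 was rank 19, 20 and 20 in mice 1, 2 and 3. Neighbouring CGIs are not independent, so the intervals cover counting error only. The median number of probes was 5 on both chromosomes 8 and 13.

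The median level of the autosomes was in a narrow range, and the X chromosome was the highest in each mouse. On the 385 CGIs of the X chromosome the median log2 ratio was 0.25 in mouse 1, 0.24 in mouse 2 and 0.22 in mouse 3, while on the 13435 autosomal CGIs it was -0.09, -0.14 and -0.14. The differences of 0.35, 0.37 and 0.36 (mean 0.36 ± 0.014, SD, n = 3) were nearly equal in the 3 mice, and the exact permutation p was 0.25 (two-sided), the smallest that 3 mice allow. This was a shift of the main peak and not of the share of strongly enriched CGIs. The main peak was at 0.13 on X and at -0.28 on autosomes. Enriched were 14.3% of the X CGIs and 14.8% of the autosomal ones, with the upper peak at 4.19 and 4.67. Depleted were 2 CGIs on X (0.519%) and 732 on autosomes (5.45%), and values between 0.5 and 1 were found at 19.7% on X and 6.96% on autosomes.

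The signals of the separate channels moved with this difference. Male cells carry a single X chromosome, and the input signal of X CGIs had a median of -0.94, -0.79 and -0.76 (log2 relative to the median probe) in mice 1, 2 and 3, against -0.26, -0.20 and -0.19 on autosomes. The MeDIP signal was also lower on X, with -0.49, -0.38 and -0.41 against -0.17, -0.17 and -0.18, but by less than the input. Control spots without a target, which carry background only, had a positive median log2 ratio of 0.74, 0.47 and 0.37 in the same mice. With only probes well above background in both channels, the difference was larger, with 0.51, 0.46 and 0.42 over 287 X and 10946 autosomal CGIs. The part of the lower input signal in this difference was not tested.

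**Figure D3:**
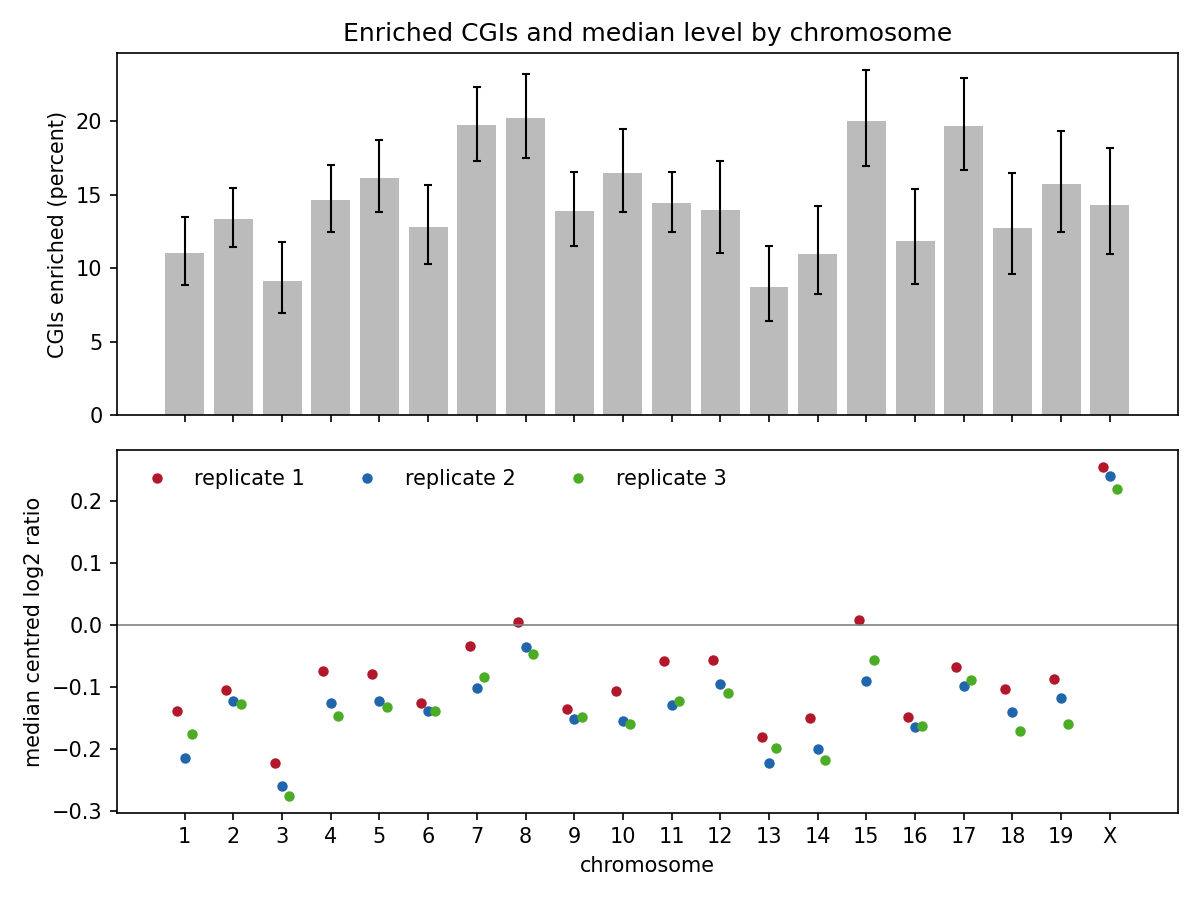
Percent of CGIs called enriched on each chromosome (bars, with 95% exact binomial intervals). Points give the median centred log2 ratio of all CGIs of the chromosome in each of the 3 Mdr2-/+ livers. The share was highest on chromosome 8 (20.2%) and lowest on chromosome 13 (8.72%), whereas the median was highest on X (0.25, 0.24 and 0.22), whose share of 14.3% was close to that of all CGIs.

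The CGIs had nearly the same order in the 3 mice, and most ranges of 1 log2 unit or more fell below that after scaling. Across the 13826 CGIs Pearson's r was 0.978 between mice 1 and 2, 0.984 between mice 1 and 3 and 0.984 between mice 2 and 3. All points of a pair share their arrays and probes, so these values are descriptions. Only 3.64% of the variance of the levels lay between mice within CGIs, and the median SD over the 3 mice was 0.17. Mice 2 and 3, whose arrays lay on the same slide, differed by 1 log2 unit or more at 40 CGIs, but mouse 1 differed that much from mouse 2 at 770 and from mouse 3 at 765.

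**Figure D4:**
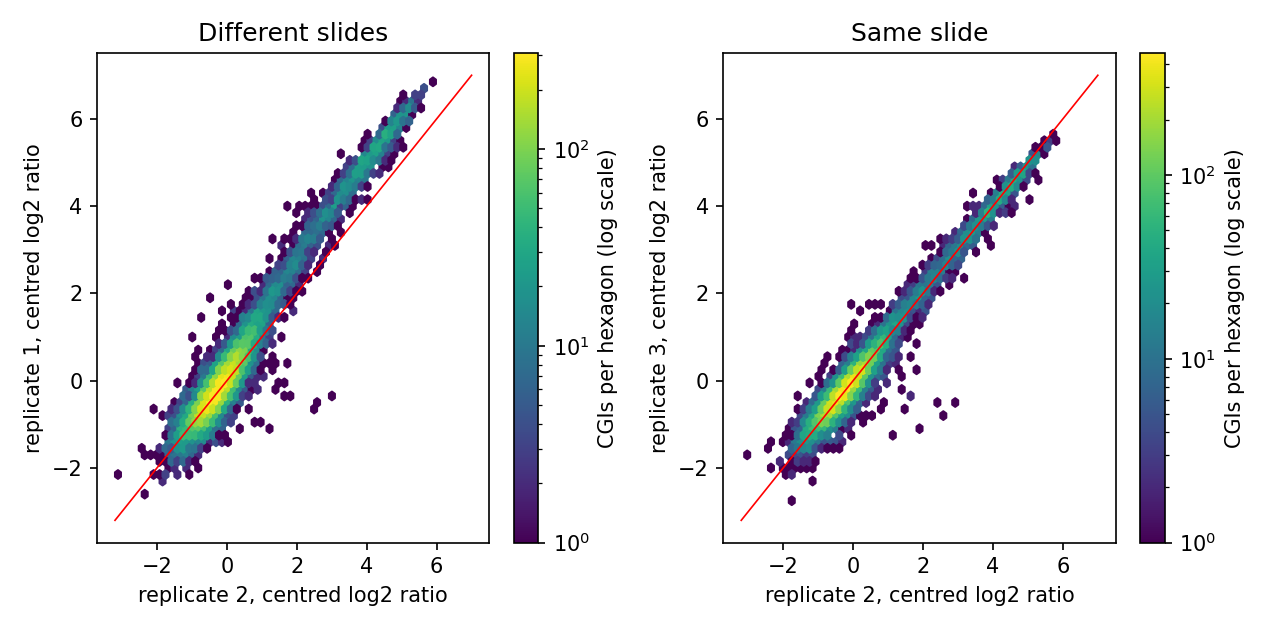
Centred log2 ratio of all CGIs in replicate 1 (left, different slides) and replicate 3 (right, same slide) against replicate 2, with the number of CGIs per hexagon on a log colour scale and the line of equality in red. High CGIs lie above the line for replicate 1 and on it for replicate 3, and a few CGIs lie to the right of both clouds, where replicate 2 alone was high.

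The gap of mouse 1 grew with the level of the CGI. Among CGIs with a mean between -0.5 and 0 the median of mouse 1 minus the mean of mice 2 and 3 was 0.016, between 1 and 2 it was 0.52, and between 4 and 5 it was 1.03. Mouse 1 was the highest of the 3 mice at 39.8% of the CGIs between -0.5 and 0 and at every CGI with a mean of 3 or more. Probes on its array also had a larger SD, with 1.83 against 1.56 and 1.52. After each array was scaled to the same SD of its probes, the upper peaks were at 4.63, 4.63 and 4.66, and a difference of 1 or more was found at 88 CGIs between mice 1 and 2, at 47 between mice 1 and 3 and at 51 between mice 2 and 3. The scaling thus lowered the counts of both pairs with mouse 1 and raised that of mice 2 and 3 from 40 to 51. As the SD was that of these same probes, high ones included, the closeness of the upper peaks is partly built in. The array of mouse 1 lay on another slide than those of mice 2 and 3, so that mouse and slide cannot be told apart.

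The spread between mice at a given level followed the same scale. At a mean between -0.5 and 0 the median SD was 0.13, and at a mean between 4 and 5 it was 0.60, which became 0.16 after scaling. At 5 or more the SD fell from 0.63 to 0.098 by scaling, the smallest of all levels after scaling. The scale came from the SD of all probes of these arrays, the high ones included, so this fall is partly built in. After scaling, and among levels with at least 20 CGIs, the spread was largest at means of 2 to 3, with 0.23. The 4 CGIs below -2 had a median SD of 0.38 as measured and after scaling. Without mouse 1 the median SD over all CGIs was 0.094.

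**Figure D5:**
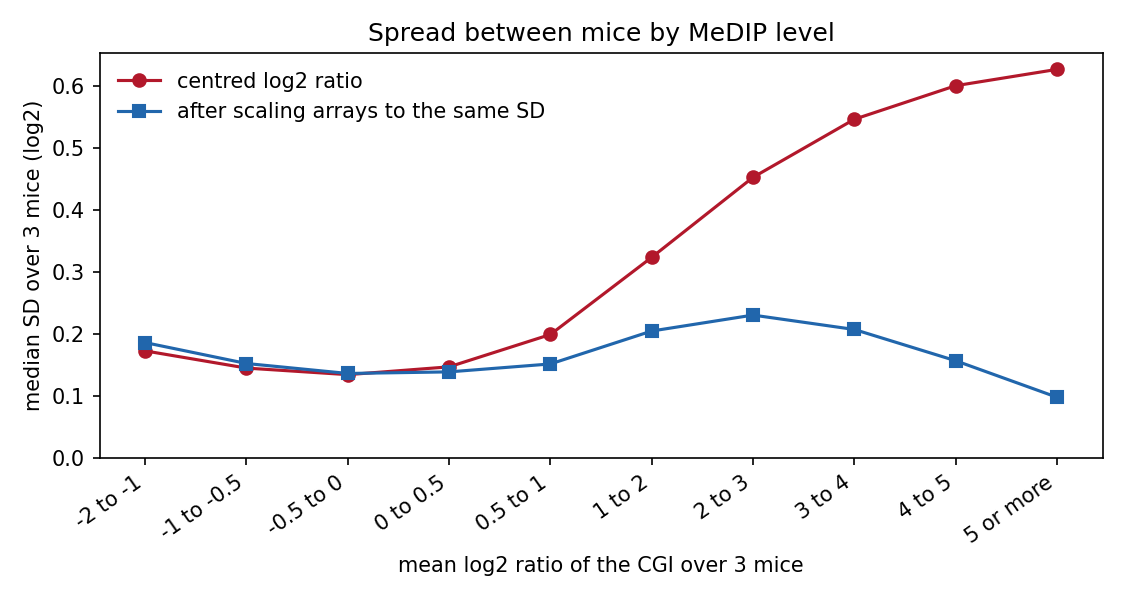
Median over CGIs of the SD over the 3 Mdr2-/+ mice, by the mean log2 ratio of the CGI, as measured (circles) and after scaling the arrays to the same SD (squares), for levels with at least 20 CGIs. The SD rises to 0.63 with the level as measured, and after scaling it is highest (0.23) at means between 2 and 3.

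Few CGIs differed between mice beyond this scale. The range over the mice was 1 or more at 1014 CGIs as measured and at 139 after scaling, and 2 or more at 15 and 11. Among the 139, mouse 1 was the odd animal at 53 CGIs where it was higher and 3 where it was lower. Mouse 2 was odd at 26 and 30, and mouse 3 at 13 and 14 CGIs. The mice were therefore odd in both directions, apart from mouse 1, which was mostly higher.

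The 5 CGIs with the largest SD under the condition on signal were of different kinds. At chr6:34247203-34247705 the values were -0.36, 2.93 and -0.53 in mice 1, 2 and 3, and at chr3:116799886-116800342 they were -0.56, 2.57 and -0.75. In both CGIs of 3 probes mouse 2 was high through only 1 probe, which had 8.81 and 9.30, respectively, while the other 2 probes were close to those of mice 1 and 3. With the median over probes in place of the mean, these CGIs had means of -0.29 and -0.43.

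The other CGIs differed over several probes. At chr10:60813607-60814074, all 5 probes were higher in mouse 1, and the CGI had 3.95, 1.68 and 2.21 (mean 2.62 ± 1.19, SD, n = 3, adjusted p = 0.0056 from limma). It was enriched in each mouse, and its SD was still 0.90 after scaling. At chr16:37458521-37459222, mouse 2 had 1.66 and mice 1 and 3 had -0.39 and -0.39. All 7 probes were highest in mouse 2, from a small gap at the second probe (1.74 against 1.61 and 1.35) to wide gaps at the sixth (2.29 against -1.05 and -1.34) and at the seventh (2.13 against -2.27 and -0.70). At chr13:120606875-120607139, all 3 probes were highest in mouse 1, and the CGI had 1.93, -0.48 and 0.07. With 1 array per mouse, a difference between mice and a difference between arrays cannot be told apart.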

How the data were processed

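The authors hybridised MeDIP DNA (Cy5) and input DNA (Cy3) to 2-colour Agilent mouse CpG island arrays. The deposited scanner files hold, per the file headers, intensities from Agilent Feature Extraction 10.5.1.1 (the submitters' processing notes name 8.5.1.1) that were corrected for background and dye, a log10 ratio made from them, and calls of probes above background. The authors also deposited a table of normalized scores (Z-scores) for 69831 probes, of which 61374 had values in the 3 control columns, and this was used as an alternative only.

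From 94687 features, 5950 control spots and 60 probes with an outlier flag were left out. The log2 ratio of the processed intensities was centred on the median of each array and averaged over runs of at least 3 of the 88298 probes with a position and no flag. In 74 probes the position is written from high to low. Probes were joined by the first number as written, and the lower coordinate was used for the limits of a CGI. Each CGI was tested against 0 over the 3 mice with limma 3.58.1 (an intercept and eBayes, Benjamini-Hochberg adjustment over all CGIs) in R 4.3.3. Peaks were read from a kernel density with a bandwidth of 0.2, and mixtures were fitted with mclust 6.1.1. For scaled values, each array was divided by the SD of its probes and multiplied by the mean SD of the arrays. The difference between X and autosomes and that between outer and inner probes were tested by changing the sign of each mouse in all ways (exact permutation test).

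CGIs were named by a rule. These were the 10 highest and the 10 lowest means with an adjusted p under 0.05, the same sign in all mice and at least 50% of the probes above background in both channels on each array, and the 5 largest SDs under the same condition on signal. Further CGIs and runs are named as those with the most probes or CGIs of their kind. The rule also had lists of imprinted, germline, housekeeping and cell type genes, which were not used, because the files pair no probe with a gene and no annotation of the mm8 build was used here. The samples, lists and rules were chosen with earlier results of these data known. The procedure was tested on simulated data. Separate mice are replicates, and p-values measure the spread between their arrays. The Mdr2-KO arrays entered no calculation.

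Alternatives changed the centring, dye and background correction, scaling, source of the ratio, filters, definition of a CGI, weights, test, thresholds and arrays left out.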

Additional observations from a re-analysis of the deposited data

Results flagged for a closer look

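The array holds 379 CGI probes for which the files give no position and which therefore belong to no CGI. A mean log2 ratio of 1 or more was found at 58.0% of them, compared to 21.02% of the 88298 probes with a position, and 47.2% against 16.9% had 1 or more in every mouse. Their median was 1.51 in mouse 1, 1.18 in mouse 2 and 1.11 in mouse 3, against -0.0053, -0.0047 and -0.0041 for the probes with a position. The difference was not tested.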

How the results depend on the processing

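For the 25 CGIs named by rule, no call changed its sign in the alternatives that gave a value (17 of them with the deposited Z-scores and 18 with only probes above background). Among the most variable CGIs, means without a call did change sign. This was so for 2 CGIs with the median over probes, 1 without mouse 1 and 3 without mouse 2. The other named CGIs were recomputed with loess and normexp only. The number of enriched CGIs was within 1.5 times that given in 19 of 22 alternatives and the number of depleted CGIs in 16 of 22. Normexp background correction left 484 enriched and 25 depleted CGIs, with 7.67% of the CGIs above the trough and the upper peak at 2.28, and the cause was not tested. It ended the calls of 9 of the 10 lowest CGIs and of chr10:60813607-60814074. The methods' t-test did not call the latter either, with or without adjustment. Loess within arrays gave 8.498% above the trough and an upper peak at 2.54. With the deposited Z-scores 449 CGIs were depleted and 9.76% were above the trough, and with only probes above background 10.03% were above it. CGIs of at least 5 probes, of which there are fewer, gave 920 enriched, 419 depleted and 5.65% above the trough. A limit of 0.5 gave 3526 depleted CGIs, a limit of 1.5 gave 85, and the adjusted p alone gave 3908 enriched and 5299 depleted. The median SD between mice was 0.39 when arrays were centred on the density peak. The difference between X and autosomes stayed positive in all 16 alternatives run, from 0.24 to 0.50. Chromosome 8 had 17.8% enriched CGIs with loess and 5.03% with normexp, and chromosome 13 had 2.52% with normexp.

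Leaving out each mouse in turn gave 1900 to 2147 enriched and 714 to 785 depleted CGIs, 8.71% to 9.13% above the trough, a difference between X and autosomes of 0.36 to 0.37, and a median SD of 0.094 (without mouse 1) to 0.17. No paired analysis was possible because each array already compares both DNA fractions of 1 mouse and only 1 group was used. Slide as a random block could not be fitted with 3 arrays and was not run.

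MeDIP signal was above background least often at the depleted CGIs (61.1% of probes). Signal above background in both channels also became rarer with probe length. Probes of 60 bases, 2744 in all, were above background in both channels at 3.95%, and their medians of 0.71, 0.45 and 0.37 in mice 1, 2 and 3 were close to the 0.74, 0.47 and 0.37 of control spots without a target. Of the 65263 probes of 44 or 45 bases, 92.7% were above background.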

Other observations

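Of the 6 CGIs on sequence that is not placed on a chromosome, 2 were strongly enriched in each mouse. A CGI of 15 probes at chr1_random:91456-93386 had log2 ratios of 6.04, 5.05 and 4.96 in mice 1, 2 and 3, and a CGI of 14 probes at chrUn_random:1263085-1264829 had 6.33, 5.26 and 5.09. Their means were 1.84 and 3.97 with loess within arrays and 3.08 and 3.90 with normexp, in order of size. The lowest of the 6 was a CGI of 8 probes at chrUn_random:1173740-1174825 with -0.43, -0.56 and -0.45.

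Runs of 1 or 2 probes were not counted as CGIs. A mean log2 ratio of 1 or more was found at 31.3% of these 1702 runs, with medians of 0.40, 0.27 and 0.30 in mice 1, 2 and 3, against 14.8% of the CGIs. A mean over fewer probes varies more, and the difference was not tested.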
